A study of Mus musculus with 4 samples.

Results

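Genes of programmed cell death were followed in the whole retina of mice that lost Nrl, the transcription factor that makes and maintains rod photoreceptors, as adults. The set held 38 listed genes of apoptosis, necroptosis and pyroptosis. Of these, 35 had a probe set with a single gene symbol and were measured, among 19421 genes in all, and Bax, Bcl2l11 and Ripk1 were not analysed here. Members were taken from a list of gene names with no threshold on a measured value, and the list was drawn up with earlier results of these arrays known. The measured members fell into 19 intrinsic, 9 extrinsic, 2 necroptotic and 5 inflammasome genes, and each stood in a single class.

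The knockout mice were Nrlflox/flox; CAG-CreERTM and the control mice Nrlflox/+; CAG-CreERTM, so each control animal kept an intact Nrl allele. Both genotypes carried the Cre recombinase, which is driven by the broadly active CAG promoter and enters the nucleus after binding tamoxifen, and both were given 4-hydroxytamoxifen in ethanol and corn oil once a day into the peritoneum from postnatal day 42 to 44. An effect of Cre or of the drug itself was therefore shared by the groups compared. Retinas were taken on postnatal day 63, and each of the 4 arrays (2 per genotype) carried the RNA of 4 retinas pooled from 2 animals. The pools are separate animals, but p-values measure the spread between pools and not between single mice. In whole tissue, fewer cells of a type and less RNA per cell cannot be told apart.

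Apoptosis has an intrinsic route, in which the BCL-2 family decides whether the outer mitochondrial membrane is opened and cytochrome c is released to build the apoptosome, and an extrinsic route, in which death receptors of the TNF receptor family recruit caspase-8. Necroptosis is a lytic death in which the kinase RIPK3 activates the pore-forming pseudokinase MLKL when caspase-8 does not act. Pyroptosis is the lytic death in which inflammasomes activate caspase-1, which matures interleukins and cleaves gasdermin D into a membrane pore. Photoreceptor death has been studied through all of these routes. Many of the proteins are switched on by cleavage, phosphorylation or assembly, which transcript levels do not measure.

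No cell death member was called in knockout against control. With limma's moderated test and Benjamini-Hochberg adjustment over all genes, 0 of 35 members had an adjusted p under 0.05, beside 39 of all genes (0.201%), and their adjusted p ran from 0.664 to 0.998. At an unadjusted p under 0.05 there was 1 member, the TNF receptor gene Tnfrsf1a, beside 7.07% of all genes. The direction at that threshold was higher in the knockout, which held for 3.71% of all genes, and 0 members were lower, beside 3.37% of all genes. The members' share called was no higher than that of the genes as a whole. With 35 genes and shares this small, the counts cannot tell the members from that background.

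The differences in probe set signal were small as well as uncalled. The log2 differences, knockout minus control, ran from −0.30 for Xiap to 0.30 for Mlkl, with standard errors between 0.10 and 0.22. For all 35 members the 95% interval lay inside a 2-fold change in either direction, as it did for 98.8% of all genes. For 32 of them it lay inside a 1.5-fold change (87.8% of all genes), the exceptions being Xiap, Casp8 and Mlkl. These intervals are for single genes and are not widened for the number of members. They bound the probe set signal, which for Casp1, Mlkl, Casp4 and Nlrp3 is low and a weak measure of the transcript.

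**Figure D1:**
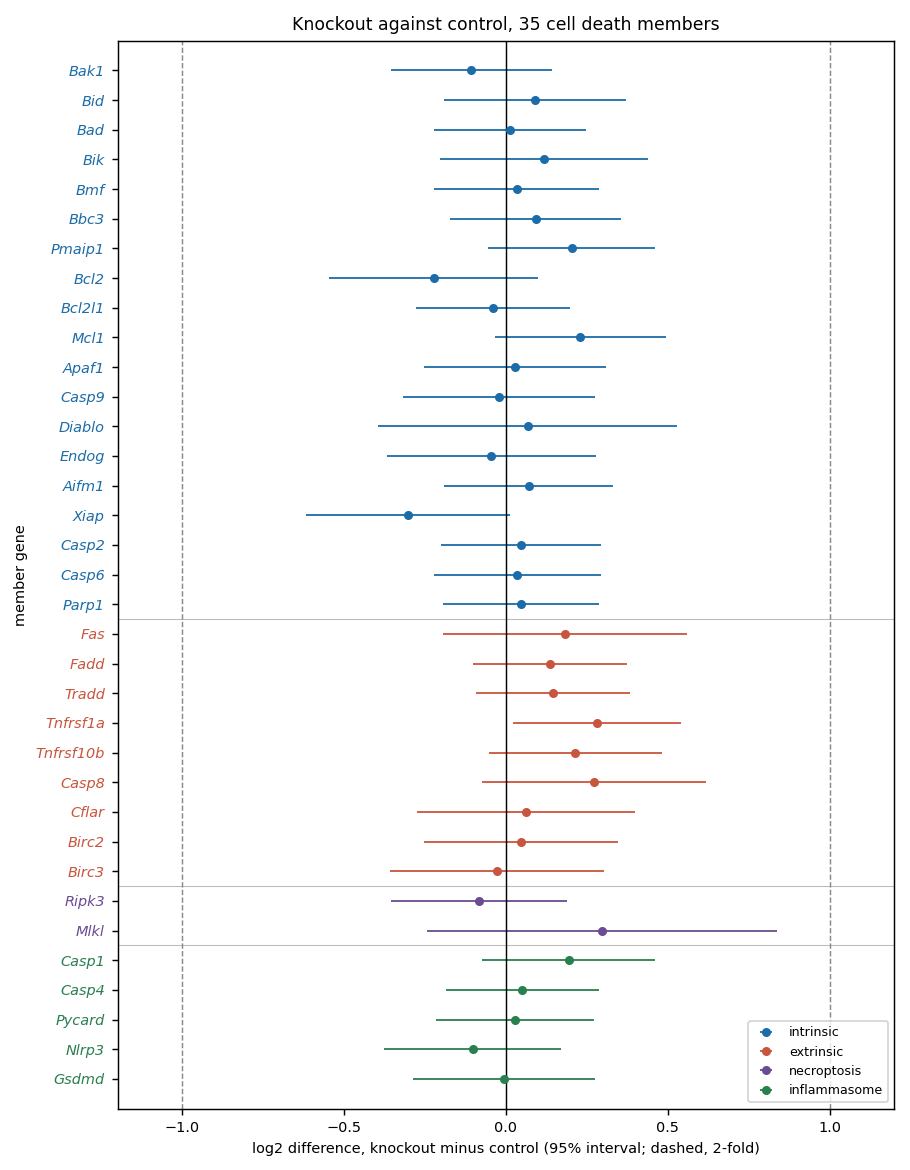
Log2 difference (x axis, knockout minus control, moderated 95% interval, n = 2 arrays per group) of the 35 measured members (y axis), coloured by class, with dashed lines at a 2-fold change. All intervals stay inside the dashed lines, and the interval of Tnfrsf1a alone excludes 0.

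More members lay above 0 than below. The counts were 25 above and 10 below, or 71.4% above, beside 49.0% of all genes, and the members' median was 0.047 against −0.0026 over all genes. For 9 members both knockout arrays lay above both controls (17.0% of all genes did), for 3 both lay below (18.4% of all genes), and for 23 the groups overlapped. The median size of the difference, regardless of sign, was 0.083 for the members and 0.092 for all genes.

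As a check of the labels, Nrl read 7.57 and 7.05 (log2) in knockout against 8.21 and 8.13 in control. Both knockout arrays were lower, at 55.2% of the control signal, although the difference did not pass over all genes (limma adjusted p = 0.289), and no source used here says whether its probes fall in the deleted part. The array medians lay between 5.99 and 6.04. Replicate 1 and replicate 2 differed in sex-linked RNA, with Xist at 4.07 and 4.09 in replicate 1 and 10.66 and 10.47 in replicate 2 of knockout and control, so the spread within each group includes any difference between the sexes. The mean log2 level over the rod genes of the marker lists was 9.83 and 9.84 in knockout and of 10.80 and 10.76 in control.

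Detection values were not used, so a low signal cannot be told from background. The mean signal of 21 members lay below the median over all genes, and that of Casp1, Mlkl and Casp4 below the 10th percentile. For these 3 genes, and for Nlrp3 at the 10.2 percentile, the values describe the probe set signal and are a weak measure of the transcript.

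**Figure D2:**
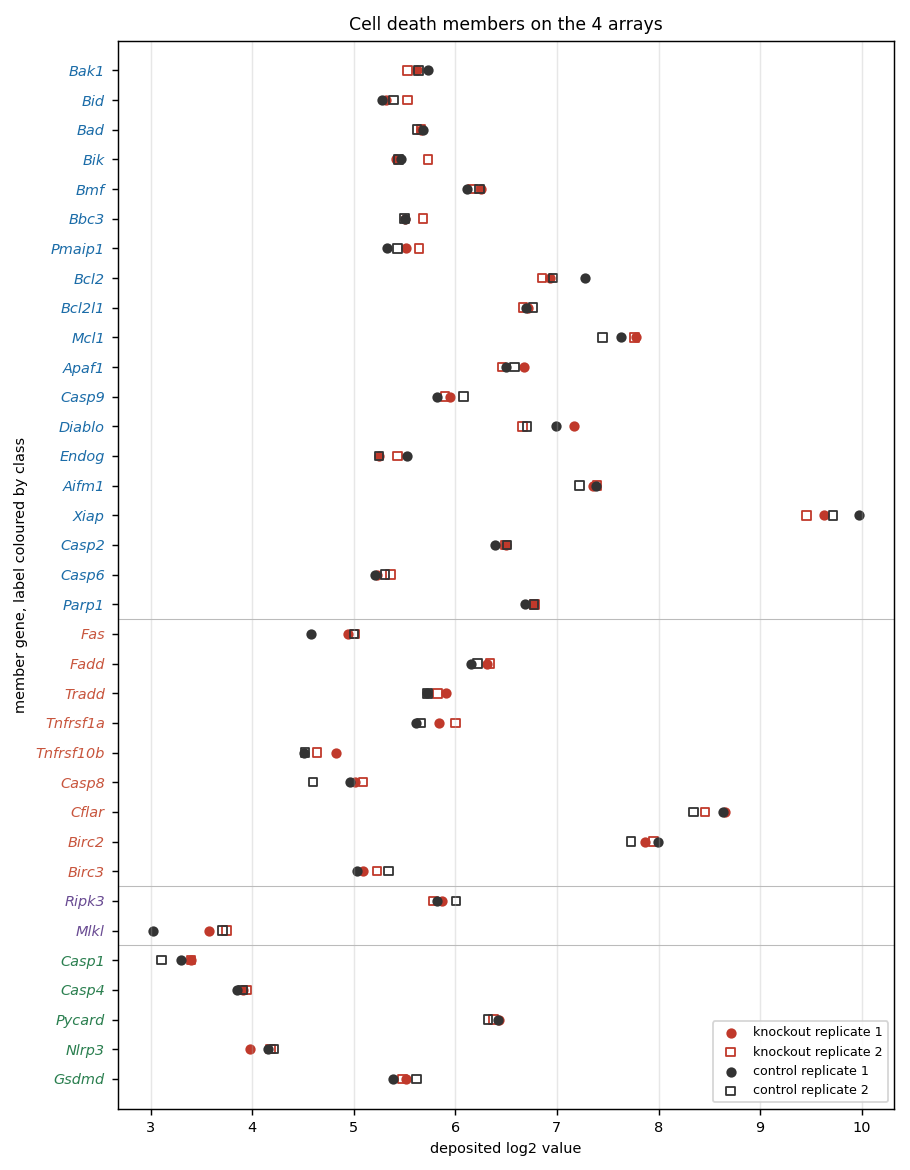
Deposited log2 value (x axis) of each measured member (y axis) on the 4 arrays, with knockout in red, control in black, replicate 1 as filled circles and replicate 2 as open squares. Within most genes the 4 points lie close together, and Mlkl, Diablo and Xiap show the widest scatter that is visible at this scale.

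The BCL-2 family holds the switch of the intrinsic route, and none of its 10 measured members was called. Bak1, an effector that forms pores in the outer mitochondrial membrane, read 5.62 and 5.53 in the knockout and 5.72 and 5.64 in the control arrays. Both knockout values were the lower ones, but by only 0.11 on the log2 scale (SE 0.10, limma adjusted p = 0.910). Its partner Bax was not analysed here.

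The survival members of the family had differences of both signs, and none was called. Mcl1, a short-lived guardian against BAK, read 7.77 in both knockout pools against 7.63 and 7.45 in control. The knockout arrays were both higher, by 0.23 (SE 0.11, 95% interval −0.035 to 0.49, limma adjusted p = 0.752), or 1.17-fold, and by 0.14 without control replicate 2. Bcl2, the founding survival gene, had 6.93 and 6.85 in knockout against 7.28 and 6.96 in control. Its difference of −0.22 (SE 0.13, adjusted p = 0.823) was −0.066 without control replicate 1 and −0.38 without control replicate 2. Bcl2l1, which encodes BCL-XL, had 6.71 and 6.67 in knockout and 6.70 and 6.77 in control, and the groups overlapped, with a difference of −0.040 (SE 0.098).

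All 6 measured BH3-only genes, whose products trigger the effectors or block the survival proteins, had differences above 0 over the 4 arrays, yet none was called and 4 of them (Bid, Bad, Bik and Bmf) changed sign in at least 1 alternative. Pmaip1, which encodes NOXA, a p53 target that binds MCL-1, read 5.52 and 5.64 in knockout against 5.32 and 5.43 in control. Its arrays did not overlap, and the difference was 0.20 (SE 0.11, 95% interval −0.054 to 0.46, limma adjusted p = 0.784). In the other 5 the groups overlapped. Bik had 0.12, Bbc3, which encodes the p53 target PUMA, 0.091, Bid, which caspase-8 cleaves to carry the extrinsic signal to mitochondria, 0.089, Bmf 0.034 and Bad 0.012. Bad was at −0.0063 after quantile normalization and at −0.0016 with arrays centred on their medians, and without knockout replicate 2 Bid was at −0.013 and Bik at −0.043. For Bik and Bbc3 the single high array was knockout replicate 2, at 5.73 and 5.68, and the other 3 arrays lay between 5.41 and 5.50.

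Downstream of the mitochondrion, the caspase inhibitor gene Xiap had the lowest difference of the members over the 4 arrays. It read 9.63 and 9.46 in knockout against 9.98 and 9.72 in control. Both knockout arrays were lower, by 0.30 on the log2 scale (SE 0.13, 95% interval −0.62 to 0.011), which is 81.0% of the control signal, and the change was not called (limma adjusted p = 0.723). The 2 replicates differed in the same direction within each genotype, by 0.17 in knockout and 0.26 in control. Replicate number also followed Xist in both genotypes. Whether sex plays a part in the gap was not tested for Xiap, which lies on the X chromosome. Without control replicate 1 its difference was −0.18, no lower than that of Birc3 or Ripk3, and without control replicate 2 it was −0.43. Leaving out an array also leaves that group with a single Xist level, so these fits do not balance the sexes. Between same-numbered arrays the difference of Xiap was −0.35 for replicate 1 and −0.26 for replicate 2. With the replicate number as a block its unadjusted p was 0.0251 and its adjusted p 0.555.

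The apoptosome genes themselves overlapped between genotypes. Apaf1, the scaffold that binds cytochrome c, read 6.67 and 6.46 in knockout and 6.50 and 6.58 in control, a difference of 0.027 (SE 0.12). Casp9, the initiator caspase that it activates, read 5.95 and 5.90 against 5.82 and 6.08, a difference of −0.021 (SE 0.12). Both shifts were smaller than their standard errors, and the control arrays enclosed both knockout values of Casp9.

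Genes of proteins that leave the mitochondrion were not called either. Aifm1, a flavoprotein of the mitochondrial intermembrane space that can move to the nucleus in caspase-independent death, had 7.36 and 7.39 in knockout and 7.39 and 7.22 in control (difference 0.070, SE 0.11, limma adjusted p = 0.959). Diablo, which displaces XIAP from caspases, had 0.067 and the largest spread of these genes (SE 0.19), with knockout replicates at 7.17 and 6.66 and controls at 6.99 and 6.71. Endog, a mitochondrial nuclease, had −0.046 (SE 0.13). Replicate 1 exceeded replicate 2 for Diablo in both genotypes, by 0.50 and 0.28, which is more than its difference between genotypes.

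Among the remaining caspases and the caspase substrate, Casp2, an initiator linked to DNA damage, read 6.50 and 6.49 against 6.39 and 6.51. Parp1, the DNA repair polymerase that caspases cleave and whose overactivity drives parthanatos, read 6.77 and 6.78 against 6.68 and 6.77. Both groups overlapped, with differences of 0.046 for Casp2 and 0.047 for Parp1 (SE 0.10 and 0.099). Casp6, an executioner caspase, had 0.036.

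No extrinsic gene was called. Differences were above 0 for 8 of its 9 members, the median was 0.14, and in 5 of them (Tnfrsf1a, Tnfrsf10b, Casp8, Fadd and Tradd) both knockout arrays lay above both controls, against 17.0% of all genes. No test of the class was made, and its members share the same arrays. The 5 genes encode parts that assemble at a death receptor, but this does not set them apart. The other 4 (Fas, Cflar, Birc2 and Birc3) also act in death receptor signalling, and in these the groups overlapped.

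Tnfrsf1a, the receptor TNFR1 through which TNF signals survival or death, read 5.84 and 6.001 in knockout and 5.61 and 5.66 in control. Both knockout pools were higher. The group means were 5.92 ± 0.12 and 5.64 ± 0.034 (SD, n = 2 each), a difference of 0.28 (SE 0.11, 95% interval 0.021 to 0.54), or 1.22-fold, with a limma unadjusted p of 0.0383 and an adjusted p of 0.664. Left without knockout replicate 2 the difference was 0.20, and over the alternatives its adjusted p ran from 0.579 to 1.

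The other receptors of the family had unadjusted p above the threshold. Tnfrsf10b, the mouse receptor for the ligand TRAIL, read 4.82 and 4.63 in knockout and 4.51 and 4.52 in control, a difference of 0.21 (SE 0.11, limma adjusted p = 0.780) that was 0.12 without knockout replicate 1. Fas, the receptor of Fas ligand, read 4.94 and 5.01 in knockout and 4.58 and 5.003 in control. Control replicate 1 alone was low for Fas, and the difference of 0.18 (SE 0.16) became −0.029 without it and 0.39 without control replicate 2.

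Tnfrsf1a lies at chr6:125349723-125362483 in the GRCm38.p6 assembly of RefSeq, on the plus strand. Stat3, which encodes the cytokine-activated transcription factor STAT3, rose in the knockout from 6.50 and 6.48 to 7.54 and 7.59 (log2 difference 1.08, limma adjusted p = 0.0271, and 0.0729 with the replicate block), and the members' promoters were searched for the STAT site TTCNNNGAA on both strands. RefSeq promoter windows reach from 250 bases before to 50 after a transcript start and were matched for 30 of the measured members by symbol, with 42 windows. A match stood in 2 of the 42 member windows, those of Tnfrsf1a and Fas, which is 4.76% against 8.30% of all 32851 windows. The 250 bases before the start are shown for both, at chr6:125349473-125349722 and chr19:34290409-34290658, plus strand, because they are the measured members with the site, which is in capitals and starts 244 and 93 bases before the transcript start:
Tnfrsf1a: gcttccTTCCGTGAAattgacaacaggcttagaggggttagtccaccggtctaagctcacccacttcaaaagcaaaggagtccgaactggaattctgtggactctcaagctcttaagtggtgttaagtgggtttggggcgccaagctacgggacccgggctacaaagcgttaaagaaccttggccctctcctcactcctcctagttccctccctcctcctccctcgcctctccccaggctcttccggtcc
Fas: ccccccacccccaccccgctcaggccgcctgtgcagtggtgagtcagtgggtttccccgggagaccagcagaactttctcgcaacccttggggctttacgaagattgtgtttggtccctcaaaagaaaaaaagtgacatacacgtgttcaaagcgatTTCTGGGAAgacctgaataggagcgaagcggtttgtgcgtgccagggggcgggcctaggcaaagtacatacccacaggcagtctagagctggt
A match is a description of the letters and does not show that the site is bound.

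Of the adaptors, Fadd, which links the receptor to caspase-8, and Tradd, the first adaptor of TNFR1, had differences of 0.14 and 0.14 (SE 0.097 and 0.098, limma adjusted p = 0.863 and 0.852). Casp8, the initiator caspase of this route and the brake on necroptosis, read 5.02 and 5.09 in knockout and 4.96 and 4.60 in control. Its difference of 0.27 (SE 0.14, 95% interval −0.073 to 0.62, limma adjusted p = 0.783) was 0.092 without control replicate 2 and 0.45 without control replicate 1. Cflar, the caspase-8 relative cFLIP that holds it in check, had 0.062 at the probe set used, and its other 2 probe sets gave −0.014 and 0.14.

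The cIAP ubiquitin ligases, which keep TNFR1 signalling on the survival side, were not called either. Birc2 had 0.046 (SE 0.12), with 0.10 at its second probe set, and Birc3 had −0.027 (SE 0.14). In both the groups overlapped.

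For necroptosis, 2 of 3 genes were measured, and they had opposite signs. Ripk3, the kinase that forms the necrosome, read 5.87 and 5.79 in knockout and 5.82 and 6.004 in control, a difference of −0.083 (SE 0.11, 95% interval −0.35 to 0.19, limma adjusted p = 0.950). Mlkl, the executioner that ruptures the plasma membrane, read 3.57 and 3.75 in knockout and 3.02 and 3.70 in control. Control replicate 1 was the low array for Mlkl. The difference of 0.30 (SE 0.22, 95% interval −0.24 to 0.84, limma adjusted p = 0.865) was −0.045 without that array and 0.64 without control replicate 2. This was the widest interval among the members, and its upper end is a 1.79-fold change.

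No inflammasome gene was called. The median difference of the class was 0.028, with 3 members positive and 2 negative, and 0 of 5 had an unadjusted p under 0.05. Nlrp3, the sensor, read 3.98 and 4.18 in knockout and 4.15 and 4.21 in control (difference −0.10, SE 0.11, limma adjusted p = 0.928). Pycard, the adaptor ASC, read 6.43 and 6.37 against 6.42 and 6.32 (0.028, SE 0.10). Both groups overlapped in these genes.

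Casp1, the caspase that the inflammasome activates, read 3.39 and 3.40 in knockout and 3.29 and 3.10 in control. Both knockout arrays were higher, by 0.19 (SE 0.11, 95% interval −0.073 to 0.46, limma adjusted p = 0.812), at a signal below the 10th percentile of all genes. The difference was 0.099 without control replicate 2 and 0.29 without control replicate 1. Casp4, the murine caspase-11 that senses bacterial lipopolysaccharide in the cytosol, read 3.91 and 3.94 against 3.84 and 3.90, a difference of 0.050 (SE 0.097). Gsdmd, the pore former of pyroptosis, read 5.51 and 5.48 against 5.39 and 5.61, and the controls enclosed both knockout values (difference −0.0054, SE 0.12, 95% interval −0.29 to 0.28).

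TNFR1 signals through NF-kB, and the Casp4 promoter is shown because it held 2 separate stretches that match the NF-kB site, searched by its consensus on both strands. They are in capitals in the 250 bases before its first listed start, at chr9:5308599-5308848 on the plus strand of GRCm38.p6, and the first stretch holds overlapping matches:
Casp4: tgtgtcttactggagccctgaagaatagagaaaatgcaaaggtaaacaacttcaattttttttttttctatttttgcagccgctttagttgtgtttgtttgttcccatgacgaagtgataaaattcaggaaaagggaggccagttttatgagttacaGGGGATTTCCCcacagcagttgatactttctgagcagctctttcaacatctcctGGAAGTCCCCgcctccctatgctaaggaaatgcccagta
Among the measured members, 8 of 42 windows held such a match (19.0%, against 8.46% of all windows), in Aifm1, Bbc3, Bcl2l1, Bmf, Nlrp3 and Xiap as well as both Casp4 windows, which overlap. The log2 differences of these 7 genes ran from −0.30 to 0.091. The p53 half-site matched in 4 windows (9.52%, against 8.36% of all), those of Birc2, Bmf, Nlrp3 and Pycard, and the interferon-stimulated element in 1, that of Cflar (2.38% against 3.44%).

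Set side by side, the class medians were 0.036 for the intrinsic, 0.14 for the extrinsic, 0.11 for the 2 necroptotic and 0.028 for the inflammasome members. This order was not kept when single arrays were left out: without control replicate 2 the necroptosis median was 0.33 and the extrinsic one 0.15, and without control replicate 1 the intrinsic median was 0.0017 and the inflammasome one 0.021. Averaged over its genes, the intrinsic class had log2 levels of 6.38 on both knockout arrays, 6.38 on control replicate 1 and 6.35 on control replicate 2, and the extrinsic class 6.05 and 6.06 against 5.91 and 5.90. The inflammasome class had 4.64 and 4.67 against 4.62 and 4.63. Only the extrinsic class held a member at an unadjusted p under 0.05. The differences between the classes were not tested, because the members were chosen with results of these arrays known.

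A further list of 57 cell death genes outside the set gave 48 measured genes and again 0 calls by limma. At an unadjusted p under 0.05 there were 4 (2 higher, 2 lower), beside the 7.07% of all genes given above, and the median was 0.021, with 28 above 0 and 20 below. Tnfaip3, which encodes A20, the ubiquitin-editing enzyme that restrains NF-kB downstream of TNFR1, read 7.14 and 7.16 in knockout and 7.75 and 7.95 in control. Both knockout arrays were lower by a margin far wider than the replicate gap, with a difference of −0.70 (SE 0.11, 95% interval −0.97 to −0.42), and it did not pass over all genes (limma adjusted p = 0.157).

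Gsdme, a gasdermin that caspases can cleave, read 8.62 and 8.65 in knockout against 8.31 and 8.15 in control, a difference of 0.40 (SE 0.11, limma adjusted p = 0.464). Its second probe set, at a lower signal, had −0.18, so the probe sets disagreed in sign. Traf2, an adaptor of TNFR1 that carries the cIAPs, had 0.28 and Htra2, a mitochondrial protease that antagonises XIAP when released, −0.27 (adjusted p = 0.659 and 0.657). Tlr4, the lipopolysaccharide receptor, had 0.33 and Il1a, an alarmin released from dying cells, −0.21.

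The cytokines tied to these routes were not called. Tnf, the ligand of TNFR1, read 5.70 and 5.14 in knockout and 5.27 and 5.50 in control (difference 0.039, SE 0.20). Il1b and Il18, the interleukins that caspase-1 matures, had 0.19 (SE 0.11) and 0.16 (SE 0.29). Il18 followed replicate number, at 6.63 and 7.05 in knockout and 6.25 and 7.11 in control.

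**Figure D3:**
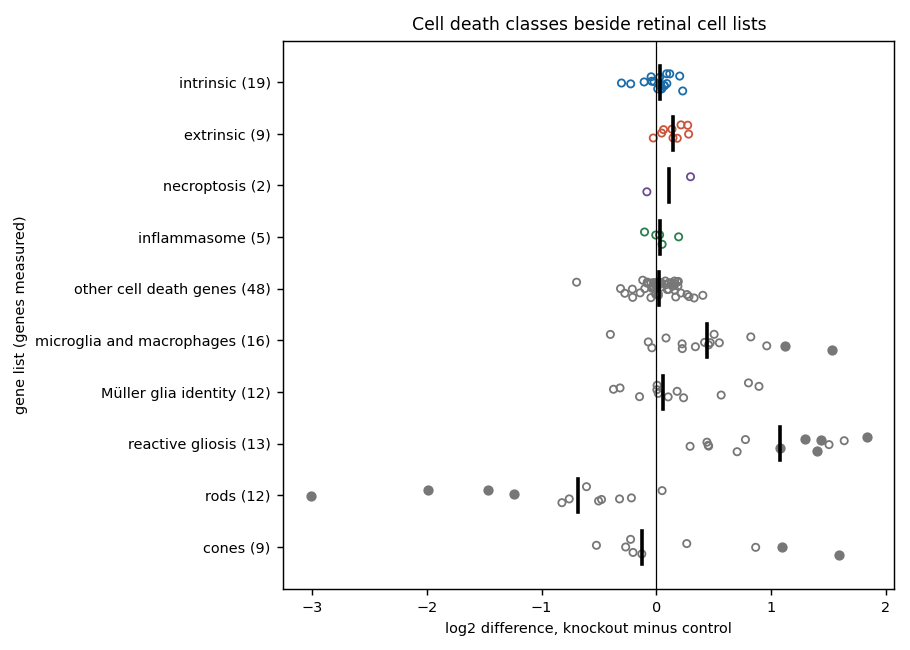
Log2 difference (x axis, knockout minus control) of each measured gene in the 4 cell death classes, the further cell death genes and 5 lists of retinal cell genes (y axis, number of genes in parentheses), with filled points for genes at a limma adjusted p under 0.05 and a black bar at each list's median. The cell death classes are centred between 0.028 and 0.14 with no filled point, and the reactive gliosis list at 1.08. All lists were chosen with earlier results of these data known, so the medians are a description.

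The same arrays showed 13 calls in lists of retinal cell genes, among 39 calls over all genes (0.201%). These lists, too, were chosen with earlier results of these data known, so their counts and medians are a description. Of these 13 genes, 2 (Gnat1 and Reep6) were still called by limma with the replicate number as a block, 3 without knockout replicate 1, 2 without knockout replicate 2 and 0 without either control array, where the adjusted p values of all 13 were above the threshold. Of 12 measured rod genes 4 were called and lower (median −0.68, 11 below 0), with Gnat1, rod transducin, at −3.01, Reep6 at −1.99, Gnb1 at −1.47 and Rom1 at −1.24. At a limma unadjusted p under 0.05, 10 rod genes were lower and 0 higher. Of 13 reactive gliosis genes 5 were called and higher (median 1.08), among them Stat3, and 12 were higher and 0 lower at that unadjusted threshold. Of 16 microglia and macrophage genes 2 were called and higher (median 0.44, 13 above 0 and 3 below), Ctss at 1.53 and Tyrobp at 1.12. At the unadjusted threshold 10 of the 16 were higher and 1 was lower. The summed linear signal of the 16 genes was 1538 to 1599 in the knockout arrays against 930.2 to 957.1 in the controls. This sum is weighted to the genes with the strongest signal, Ctss and Tyrobp among them. Death receptor and inflammasome genes are also expressed by microglia and glia, and the part of these cells in the members' values was not tested. Of 9 cone genes 2 were called and rose, Gnat2 by 1.10 and Gnb3 by 1.59, but the list was mixed, with 4 above 0 and 5 below (median −0.13). For 3 cone genes both knockout arrays lay above both controls and for 3 both lay below. At a limma unadjusted p under 0.05, 3 were higher and 1 was lower. Of 12 Müller glia identity genes 0 were called by limma, with a median of 0.060 and 4 at an unadjusted p under 0.05. The 7 vascular genes and the 9 genes of pigment epithelium, lens and blood also had 0 calls, with 0 and 1 at an unadjusted p under 0.05. Of 7 neutrophil and lymphocyte genes 0 were called and 1 had an unadjusted p under 0.05, with a summed signal of 182.6 to 192.5 in knockout and 169.8 to 197.2 in control.

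**Figure D4:**
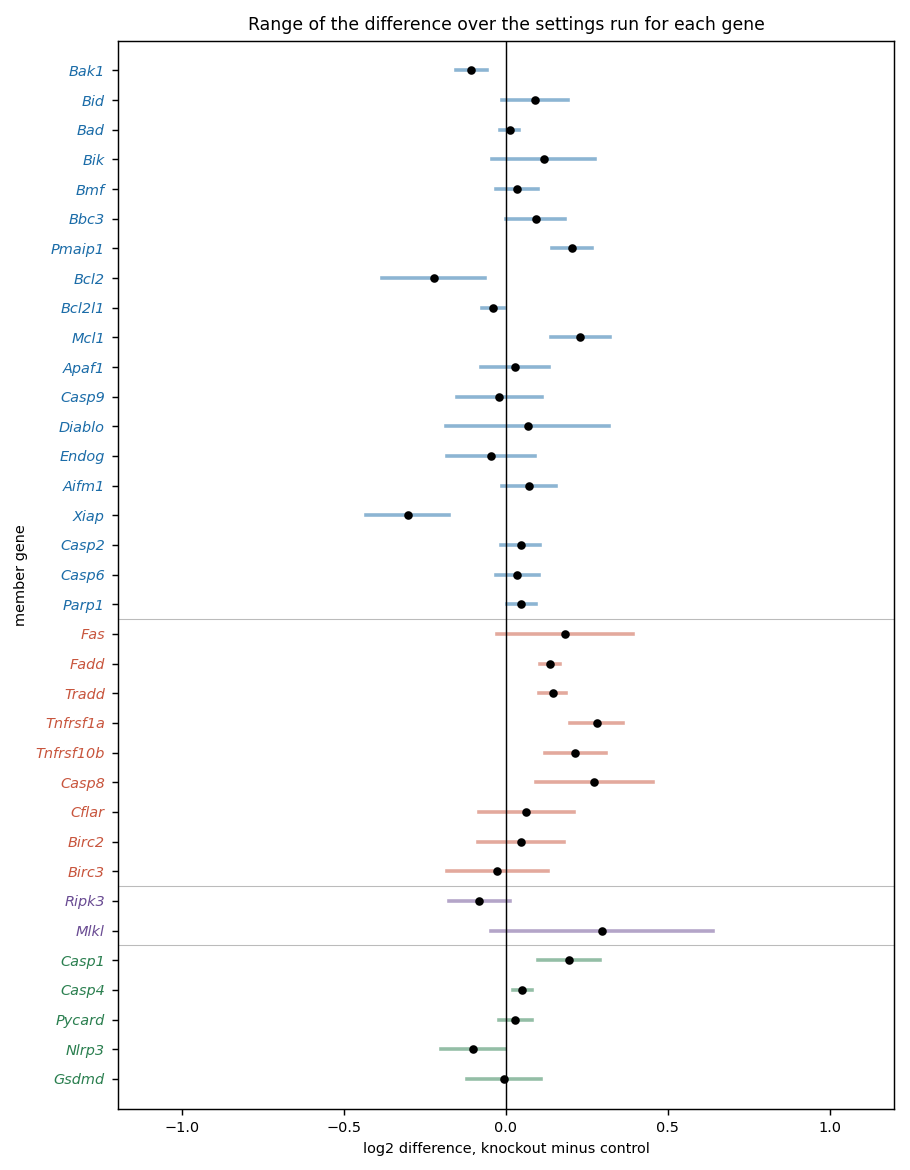
Range of each member's log2 difference (x axis, coloured line) over the fit with all arrays (black point) and the alternative settings run for it (10 for the 14 members that passed the signal filter, 9 for the other 21), by member (y axis, same order and colours as in the other plots). The range crosses 0 for 19 of the 35 members, and Mlkl has the widest.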

How the data were processed

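Expression was measured on 4 single-colour Affymetrix arrays. The deposited table holds the authors' log2 values of 21897 probe sets for each array. Per the submitters' processing notes affy and limma were used, without versions, and the sources used here do not give the background correction or normalization. The log2 scale was taken from the values, which ran from 1.34 to 12.75, and was kept. The number of arrays limits the precision.

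Under the platform annotation 20877 probe sets had a single symbol, and 175 with several and 845 without any were left out. For each gene the single-symbol probe set with the highest mean over the 4 arrays was used, which left 19421 genes. Differences between genotypes came from limma 3.58.1 (R 4.3.3; lmFit, eBayes, no term but genotype, two-sided), with p-values adjusted over all genes by Benjamini-Hochberg and calls at an adjusted p under 0.05. SE is the moderated standard error, and the intervals are limma's 95% intervals. An exact permutation test cannot pass the threshold, as 2 against 2 arrays can be divided in 3 ways only. No filter on low signal was applied.

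The members, classes, lists and naming rule were chosen with earlier results of these data known. The rule gave each member's difference, with every array for the members at an unadjusted p under 0.05, the 2 with the smallest p in each class and a fixed set of central genes. Of further cell death genes the 6 with the smallest p and a fixed set were named, and of each marker list the 3 with the smallest p could be; Diablo, Il18, Gnb1 and Rom1 were given in more detail after their values were seen. Alternatives were the replicate block, quantile normalization, median centring, a signal filter, mean probe sets, a variance trend and leaving out each array.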

Additional observations from a re-analysis of the deposited data

How the results depend on the processing

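None of the 35 members was called by limma in any of the 10 alternatives, whose lowest adjusted p for a member was 0.457. At an unadjusted limma p under 0.05 stood 8.27% of all genes with the replicate block and 7.78% after quantile normalization. The share of all genes was 10.2% with the signal filter and 7.53% with the variance trend. The member counts in these settings, given next, are too small to be told from those shares. Members at an unadjusted p under 0.05 numbered 2 with the replicate number as a block (Xiap and Tnfrsf1a), 2 after quantile normalization, 2 with only genes above the 50th percentile of mean signal (14 members), 3 with a variance trend, and 0 to 4 when each array was left out in turn. The 4, without control replicate 2, were Bcl2, Xiap, Fas and Mlkl, and without control replicate 1 they were Mcl1 and Casp8. Over all genes the 39 calls became 8 with the block, 89 with the filter, 128 with the trend and 0 to 11 on leaving out an array. The 0 arose without either control array, where limma left 1355 and 1328 genes at an unadjusted p under 0.05. A lone array in a group was assumed to vary like the others. It also had a single Xist level, high or low, against both levels in the other group. Any difference between the sexes can therefore enter the fits with an array left out.

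The members' median difference was 0.063 after quantile normalization and 0.035 to 0.092 on leaving out an array. The extrinsic median was 0.13 after quantile normalization, 0.13 with arrays centred on their medians, 0.062 with the filter and 0.12 to 0.18 without single arrays. Without single arrays the intrinsic median ran from 0.0017 to 0.084, the inflammasome median from 0.0021 to 0.080 and the necroptosis median from −0.11 to 0.33. The filter left no necroptosis gene. The sign of the difference was the same in every setting in which it was tested for 16 members, Tnfrsf1a, Casp8, Xiap, Mcl1 and Bcl2 among them. The labels do not say that a replicate number pairs the arrays, but Xist was low in replicate 1 and high in replicate 2 of both genotypes. The block therefore also takes up any difference between the sexes. The deviations of same-numbered arrays correlated over all genes at r = 0.24 (genes are not independent), and the block changed no call among the members.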
